A study of Danio rerio with 6 samples.

Results

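The genes described here carry cells through DNA replication and mitosis, in the zebrafish, Danio rerio, sampled as whole embryos 30 hours after fertilisation (30 hpf). They were chosen by symbol from textbook roles: 24 symbols for the G1/S transition and S phase and 18 for G2 and mitosis. These 42 symbols matched 44 of the 32057 gene entries of the deposited count table, because rrm2 and ube2c each stand beside 2 Ensembl identifiers. All 44 entries passed the filter on low counts, among 19889 genes tested. Poly-A RNA was sequenced from single snap-frozen embryos, 3 labelled wild type (WT) and 3 labelled 3etv, which the series describes as triple mutants of the Pea3 group of ETS transcription factors. Which genes of the group were mutated, the alleles, the strain and the clutch are not stated in the labels, and p-values therefore measure the spread between single embryos and not between families.

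In a dividing cell, the MCM helicase is loaded on origins by CDC6 and CDT1, activated with the help of cyclin E and CDK2, and followed by polymerases that depend on PCNA and on a supply of deoxynucleotides from ribonucleotide reductase. Cyclin B with CDK1 then drives mitosis, the Aurora and Polo kinases build the spindle and divide the cell, and the anaphase-promoting complex with CDC20 and UBE2C ends it. Many of these genes are transcribed in waves under E2F factors at G1/S and under MYB and FOXM1 in G2, so that their transcripts are widely used as signs of proliferation. At this stage much of the division in the embryo takes place in the brain, retina and other growing organs. In RNA from a whole embryo, fewer cells of a type and less RNA per cell cannot be told apart.

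The libraries held from 17570505 to 25512862 counts in genes, and every mutant library was shallower than every wild-type library. The Pea3 gene etv5b was at 74.7 ± 1.81 CPM (counts scaled to a common library size, mean ± SD, n = 3) in wild type and 29.5 ± 1.82 CPM in mutants. Whether etv5b was among the mutated genes is not stated, so its level cannot by itself check the labels. No batch is labelled. Values below are CPM scaled with TMM factors. These CPM values depend on transcript length, so levels are compared between embryos and not between genes. The embryos of each genotype are called the first, the second and the third by the numbers in their titles and are given in that order; the same number in the other genotype is a different embryo. A gene is called where the Benjamini-Hochberg adjusted p over all tested genes is under 0.05 in edgeR's quasi-likelihood test. That test is behind every single adjusted p given here. Ranges and upper ends of adjusted p over alternative fits also take in the DESeq2 and limma-voom tests. The value after ± in a log2 fold change is its standard error (SE).

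Of the 44 entries, 9 were called higher in mutants and 1 lower. Over all tested genes 12.6% were called higher and 13.5% lower, so 5178 genes, or 26.0%, were called either way. The share of entries called higher was 20.5% and the share called lower was 2.27%. The changes were small: the log2 fold changes of the 44 entries ran from -0.30 to 0.79, with a median of 0.13, beside a median of -0.0068 over all genes. They were above 0 for 36 of the 44, and for 9803 of the 19889 genes tested. The entries called higher encode parts of nucleotide supply (both rrm2 entries and dut), the cyclin E kinase (ccne2 and cdk2), the licensing inhibitor geminin (gmnn), topoisomerase II (top2a), the Aurora B kinase (aurkb) and a mitotic exit enzyme (ube2c). The entry called lower was chaf1b, a subunit of the chromatin assembly factor that places histones behind the fork. The calls of rrm2 (ENSDARG00000078069), dut and top2a were kept in every alternative fit run for them, and the other 7 were lost in at least 2. The count of higher calls was 3 without the third wild-type embryo (8.14% of all genes were then called higher), 3 without the third mutant (8.38% of all genes) and 5 without the second wild type (9.93%). It was 4 when libraries were scaled by their totals alone (8.65% of all genes).

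**Figure D1:**
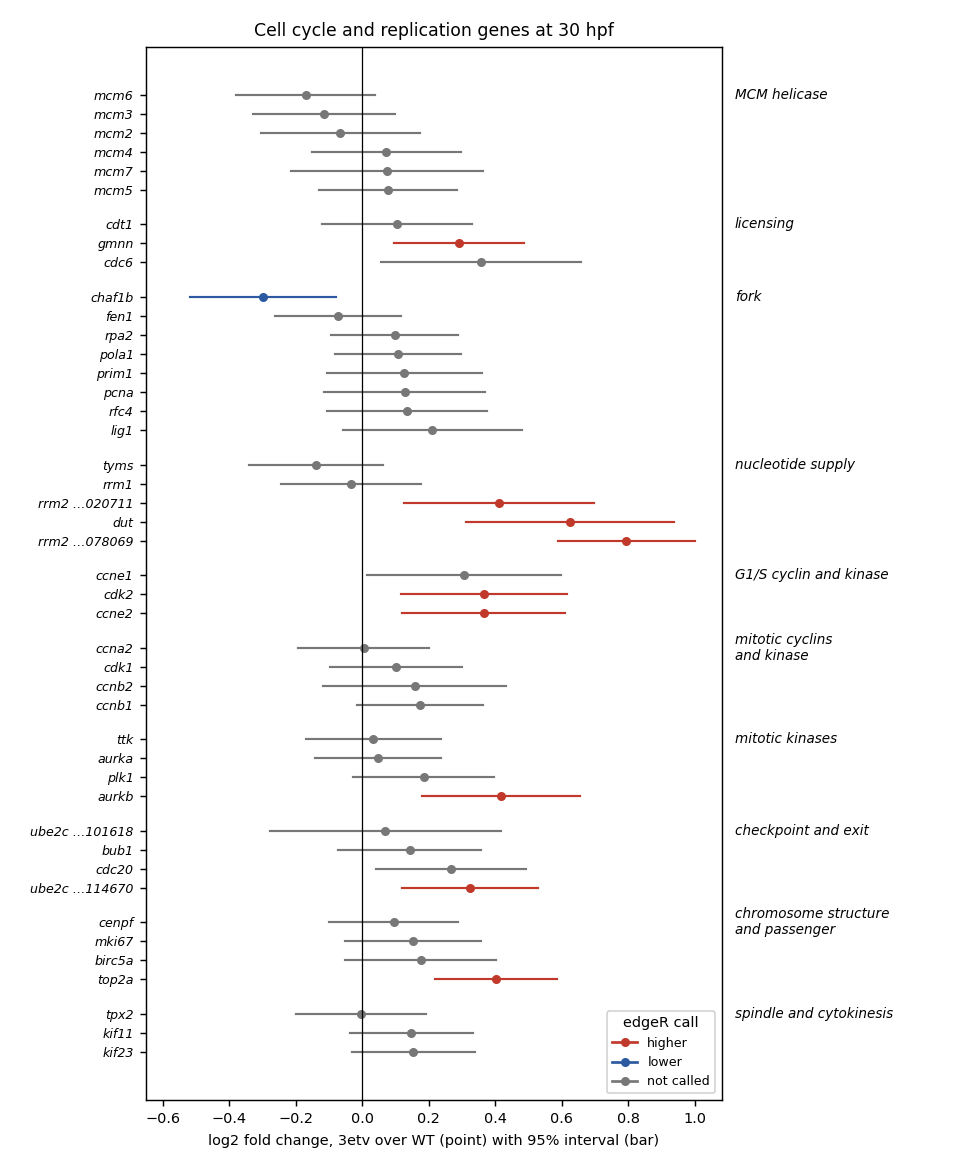
Log2 fold change of each of the 44 cell cycle entries, mutant (3etv) over wild type (x axis), with its 95% interval from the edgeR fit; rows are grouped by role, and colour gives the call at an adjusted p under 0.05. The 9 entries called higher lie between 0.29 and 0.79, chaf1b lies at -0.30, and the intervals of all 6 MCM genes include 0.

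S phase was examined first, beginning with the replicative helicase. The MCM genes, mcm2 to mcm7, encode the ring that unwinds DNA at the fork, and they are classical E2F targets. None of the 6 was called by edgeR, DESeq2 or limma-voom, and none had an unadjusted p under 0.05 in edgeR. Of all genes, 12.6% were called higher and 13.5% lower in edgeR. These shares were 11.8% and 12.6% in DESeq2, 12.7% and 13.2% in limma-voom, and 19.0% and 20.2% at the unadjusted p. The log2 fold changes of the 6 MCM genes ran from -0.17 for mcm6 to 0.08 for mcm5, and their 95% intervals together spanned -0.38 to 0.36. For mcm7 the wild types were at 312, 198 and 252 CPM and the mutants at 266, 263 and 273 CPM. All mutants thus lay inside the wild-type range, and the wild-type SD was 57.1 CPM against 5.28 CPM in mutants. The mcm6 gene had the lowest fold change of the helicase, at 221, 192 and 191 CPM in wild types and 195, 164 and 177 CPM in mutants, an overlapping pair of ranges (adjusted p = 0.214). The signs of mcm2, mcm4 and mcm7 turned in at least 1 alternative fit, so no direction is given for them.

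Of the licensing regulators, gmnn rose. Geminin binds CDT1 and blocks a second loading of the helicase in the same cycle. Its transcript was at 37.6, 40.7 and 36.3 CPM in wild types and at 44.0, 46.8 and 49.4 CPM in mutants, and every mutant was above every wild type. The log2 fold change was 0.29 ± 0.0904 (adjusted p = 0.0323), or 1.22-fold, and 4 of the 6 fits on 5 embryos did not call it (adjusted p over all alternatives from 0.0286 to 0.113). The loading factor cdc6 was at 49.0, 35.2 and 45.6 CPM in wild types and at 62.4, 44.9 and 58.8 CPM in mutants. The second mutant embryo overlapped the wild types, and the change of 0.36 ± 0.139 was not called (adjusted p = 0.0753), though it was called without that embryo and without the first wild type. Its partner cdt1 had a log2 fold change of 0.10 with a 95% interval from -0.12 to 0.33.

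At the fork itself, 1 of 8 genes was called lower and 0 higher. The share called lower, 12.5%, was close to the 13.5% of all genes, and 12.6% of all genes were called higher. The chaf1b transcript was at 64.4, 75.8 and 58.9 CPM in wild types and at 56.0, 51.2 and 54.5 CPM in mutants. The mutants were all lower, and the widest gap came from the second wild type. The log2 fold change of -0.30 ± 0.102 was close to the threshold (adjusted p = 0.046), and 8 of 14 alternatives lost the call, among them the DESeq2 and limma-voom tests and 5 of the 6 fits on 5 embryos. Neither rpa2, which coats single strands, nor the clamp gene pcna, nor its loader rfc4, nor the primase and polymerase genes prim1 and pola1, nor the flap nuclease fen1 and ligase lig1 was called. Their log2 fold changes ran from -0.07 for fen1 to 0.21 for lig1. The clamp gene pcna, a standard proliferation marker, was at 864, 669 and 754 CPM in wild types and at 845, 760.3 and 893 CPM in mutants, ranges that overlapped (log2 fold change 0.13, 95% interval from -0.11 to 0.37).

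Nucleotide supply held the entries with the largest fold changes among the 44. The small, radical-bearing subunit of ribonucleotide reductase is encoded by rrm2, and the large catalytic subunit by rrm1. The rrm2 entry ENSDARG00000078069 was at 136, 159 and 140.5 CPM in wild types and at 236, 274 and 245 CPM in mutants. The lowest mutant stood well above the highest wild type, and the log2 fold change was 0.79 ± 0.0955 (adjusted p = 0.000138), or 1.73-fold. It ran from 0.72 to 0.86 over 13 alternatives.

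The other rrm2 entry, ENSDARG00000020711, was at 204, 145 and 172 CPM in wild types and at 238, 194 and 261 CPM in mutants. Here the second mutant lay below the first wild type, and the log2 fold change of 0.41 ± 0.132 (adjusted p = 0.0374) lost its call in 5 of 13 alternatives (adjusted p from 0.0116 to 0.142). The RefSeq gene table (assembly GRCz12tu) lists rrm2b and rrm2l as 2 zebrafish genes that have carried the name rrm2, but it does not pair them with these identifiers. Reads that fit both copies cannot be assigned with certainty. With the entries summed, a step added after the data were seen, rrm2 rose from 319 to 483 CPM, a log2 fold change of 0.60 ± 0.0889 (adjusted p = 0.000579).

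The dut gene encodes the dUTPase that keeps uracil out of DNA and makes the precursor for thymidylate. It was at 109.6, 67.2 and 94.4 CPM in wild types and at 140.5, 126 and 151 CPM in mutants, with no overlap. Its log2 fold change was 0.62 ± 0.145 (adjusted p = 0.00786), or 1.54-fold, and ran from 0.45 without the second wild type to 0.78. In contrast, rrm1 and the thymidylate synthase gene tyms were not called. The rrm1 transcript was at 421, 365 and 349 CPM in wild types and at 386, 345 and 376 CPM in mutants (95% interval of the log2 fold change from -0.25 to 0.18). For tyms the log2 fold change was -0.14, with a 95% interval from -0.34 to 0.06. The interval of rrm2 (ENSDARG00000078069) began at 0.59, above that of rrm1; the difference between these genes was not itself tested.

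The cyclin E kinase starts S phase, with ccne1 and ccne2 encoding its cyclins and cdk2 its catalytic subunit. The ccne2 transcript was at 73.6, 56.6 and 64.0 CPM in wild types and at 88.9, 72.4 and 88.7 CPM in mutants. The cdk2 transcript was at 45.4, 36.1 and 39.2 CPM in wild types and at 51.5, 45.1 and 58.8 CPM in mutants. In both genes the second mutant fell just below the first wild type, and the other mutants were above all wild types. The log2 fold change was 0.37 ± 0.113 for ccne2 (adjusted p = 0.0316) and 0.36 ± 0.116 for cdk2 (adjusted p = 0.0348). Each call was lost with library totals only and in 4 of the 6 fits on 5 embryos, with adjusted p up to 0.104 for ccne2 and 0.141 for cdk2. The ccne1 transcript did not overlap between the groups, at 13.1, 12.9 and 11.8 CPM against 14.2, 14.1 and 18.4 CPM, but was not called (log2 fold change 0.31 ± 0.134, adjusted p = 0.111).

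**Figure D2:**
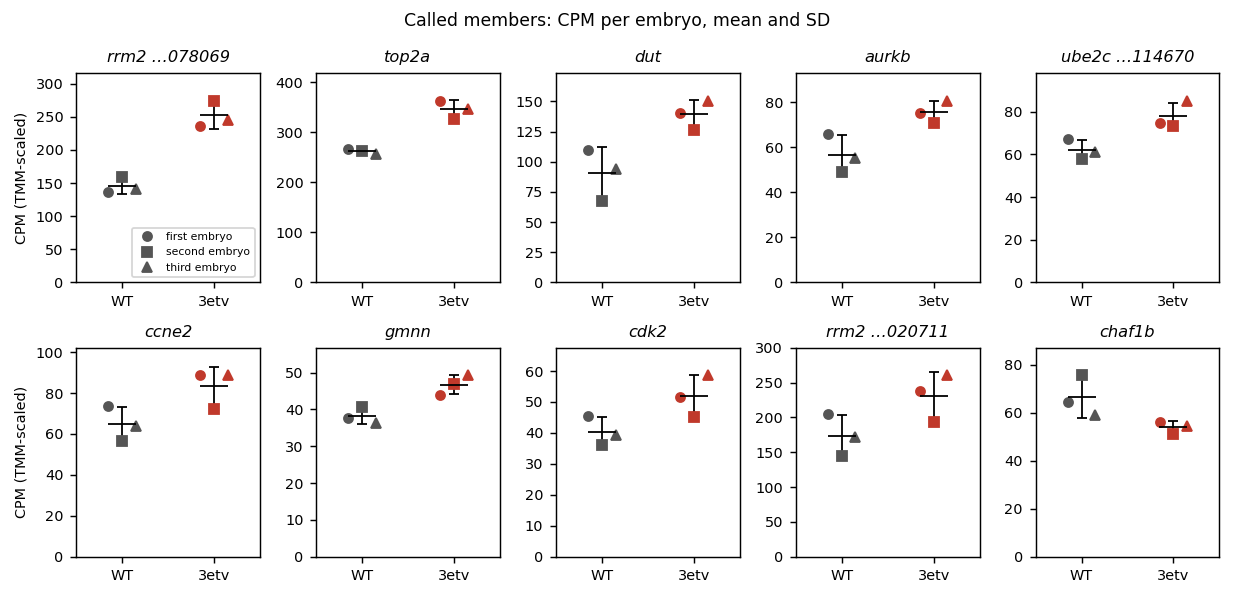
CPM per embryo (y axis, from 0) of the 10 called entries in wild type (WT) and 3etv mutants, ordered by adjusted p; marker shapes are the first (circle), the second (square) and the third (triangle) embryo, and bars are mean and SD (n = 3). The groups are fully apart for rrm2 (ENSDARG00000078069), top2a, dut, aurkb, ube2c (ENSDARG00000114670), gmnn and chaf1b. They overlap for ccne2, cdk2 and rrm2 (ENSDARG00000020711).

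Among the mitosis genes, 3 of 19 entries (15.8%) were called higher and 0 lower in edgeR, against 12.6% and 13.5% of all genes. At an unadjusted p under 0.05, 4 were higher and 0 lower (19.0% and 20.2% of all genes). DESeq2 (11.8% of all genes higher, 12.6% lower) and limma-voom (12.7% and 13.2%) also called 3 higher and 0 lower. The central engine was not called: ccna2, ccnb1 and ccnb2, the cyclins, and cdk1, their kinase, had log2 fold changes from 0.0044 to 0.17. None of these 4 was called by DESeq2 or limma-voom either, or reached an unadjusted p under 0.05 in edgeR. The ccnb1 transcript was at 113, 97.1 and 103 CPM in wild types and at 120.2, 113 and 121 CPM in mutants. The second mutant lay just below the first wild type and the other mutants above all wild types (95% interval of the log2 fold change from -0.02 to 0.36). For ccna2, which acts from S phase into G2, the means were 122 and 123 CPM, and the sign of its change turned in 4 of 14 alternatives.

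Of the 4 kinases that run the spindle and its checkpoint, aurkb was called and plk1, aurka and ttk were not. Aurora B is the kinase of the chromosomal passenger complex at centromeres and the midzone. Its transcript was at 66.0, 49.2 and 55.2 CPM in wild types and at 75.5, 70.9 and 80.8 CPM in mutants, all above the wild types. Its log2 fold change was 0.42 ± 0.109 (adjusted p = 0.0149), and the call was lost without the third wild type or the third mutant (adjusted p up to 0.0577). The centrosomal kinase gene aurka had a log2 fold change of 0.05 with a 95% interval from -0.14 to 0.24, and birc5a, which encodes the passenger protein survivin, had 0.18 with an interval from -0.05 to 0.40. For plk1, the Polo kinase, the log2 fold change was 0.18, and for the checkpoint kinase ttk it was 0.03, with adjusted p of 0.183 and 0.825.

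The strongest mitotic call was top2a, the topoisomerase that untangles sister chromatids. It was at 266, 263 and 257 CPM in wild types and at 364, 327 and 347 CPM in mutants. The wild types were nearly equal, with an SD of 4.74 CPM, and every mutant was well above them. Its log2 fold change was 0.40 ± 0.0847 (adjusted p = 0.00465), or 1.32-fold, and ran from 0.33 to 0.45 over 14 alternatives. The other chromosome genes were not called: mki67, the Ki-67 proliferation antigen that coats mitotic chromosomes, was at 809, 746 and 716 CPM in wild types and at 852, 796 and 877 CPM in mutants. The second mutant lay within the wild-type range (log2 fold change 0.15, 95% interval from -0.05 to 0.36). The kinetochore gene cenpf had a log2 fold change of 0.09.

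In the exit machinery, ube2c encodes the ubiquitin-conjugating enzyme of the anaphase-promoting complex. Its entry ENSDARG00000114670 was at 67.3, 57.9 and 61.0 CPM in wild types and at 74.8, 73.2 and 85.2 CPM in mutants, without overlap. The log2 fold change was 0.32 ± 0.0945 (adjusted p = 0.024), and the call was lost in 4 of 13 alternatives (adjusted p up to 0.103). The other entry with this symbol, ENSDARG00000101618, is paired with the gene name DNTTIP1 in the reference name table, so it may not be ube2c. It was at 8.28, 10.8 and 9.09 CPM in wild types and at 8.28, 9.90 and 11.5 CPM in mutants (adjusted p = 0.787). All 44 identifiers were in the reference name table, but only 42 had the same symbol there, so this entry was not the only one to differ. The co-activator cdc20 was higher in every mutant, at 89.3, 79.6 and 87.9 CPM against 77.8, 60.4 and 75.3 CPM, but missed the threshold (log2 fold change 0.27, adjusted p = 0.0767). The checkpoint gene bub1 and the spindle genes kif11, kif23 and tpx2 had log2 fold changes from -0.0040 to 0.15 and were not called.

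S phase and mitosis genes were set side by side as groups. The median log2 fold change was 0.11 over the 25 S phase entries and 0.15 over the 19 mitosis entries. Of the S phase entries 24% were called higher, and of the mitosis entries 15.8%, against 12.6% of all genes. Groups did not overlap, with all mutants above all wild types, for 4 S phase entries and 5 mitosis entries, 20.5% of the 44 together; over all genes this share was 21.7%. All mutants lay below all wild types for 1 of the 44 entries, or 2.27%, against 21.2% of all genes. The share of entries with non-overlapping higher values was thus close to that of all genes. With library totals only, the medians were 0.04 and 0.08, and the median of all genes was -0.08.

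Averaged within each embryo as the deviation of log2 CPM from each gene's mean over the 6 embryos, the S phase score was -0.08 ± 0.127 in wild types and 0.08 ± 0.0765 in mutants (mean ± SD, n = 3). The mitosis score was -0.08 ± 0.0799 in wild types and 0.08 ± 0.0492 in mutants. The difference between genotypes was 0.15 for S phase and 0.16 for mitosis on this log2 scale, and the S phase score minus the mitosis score differed by -0.0085. The embryos overlapped in the S phase score: the first wild type was at 0.07 and the second mutant at -0.0089. For mitosis the second mutant, at 0.02, stood just above the first wild type, at 0.01. With library totals only, the differences were 0.08 and 0.09. No test is given for these scores, since the genes were chosen with results of these data known.

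The cell cycle genes differed between embryos of one genotype as well. Among wild types, the first embryo had the highest value in 35 of the 44 entries and the second the lowest in 27. Over all tested genes the first wild type was the highest in 32.9% and the second the lowest in 34.8%. Among mutants, the second embryo had the lowest value in 32 of 44 entries, against 30.0% of all genes. These counts were 31, 34 and 33 with library totals only, against 26.8%, 39.4% and 32.8% of all genes. The median coefficient of variation over the 44 entries was 10.3% in wild types and 6.32% in mutants, beside 8.66% and 7.47% over the 10101 genes at or above the lowest mean CPM among the 44. The second wild type was instead the highest of its group for chaf1b, lig1, gmnn, cenpf, birc5a, tpx2, rrm2 (ENSDARG00000078069) and the ube2c entry ENSDARG00000101618. The 2 rrm2 entries therefore ranked the embryos differently within each genotype, although both were called higher in mutants.

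**Figure D3:**
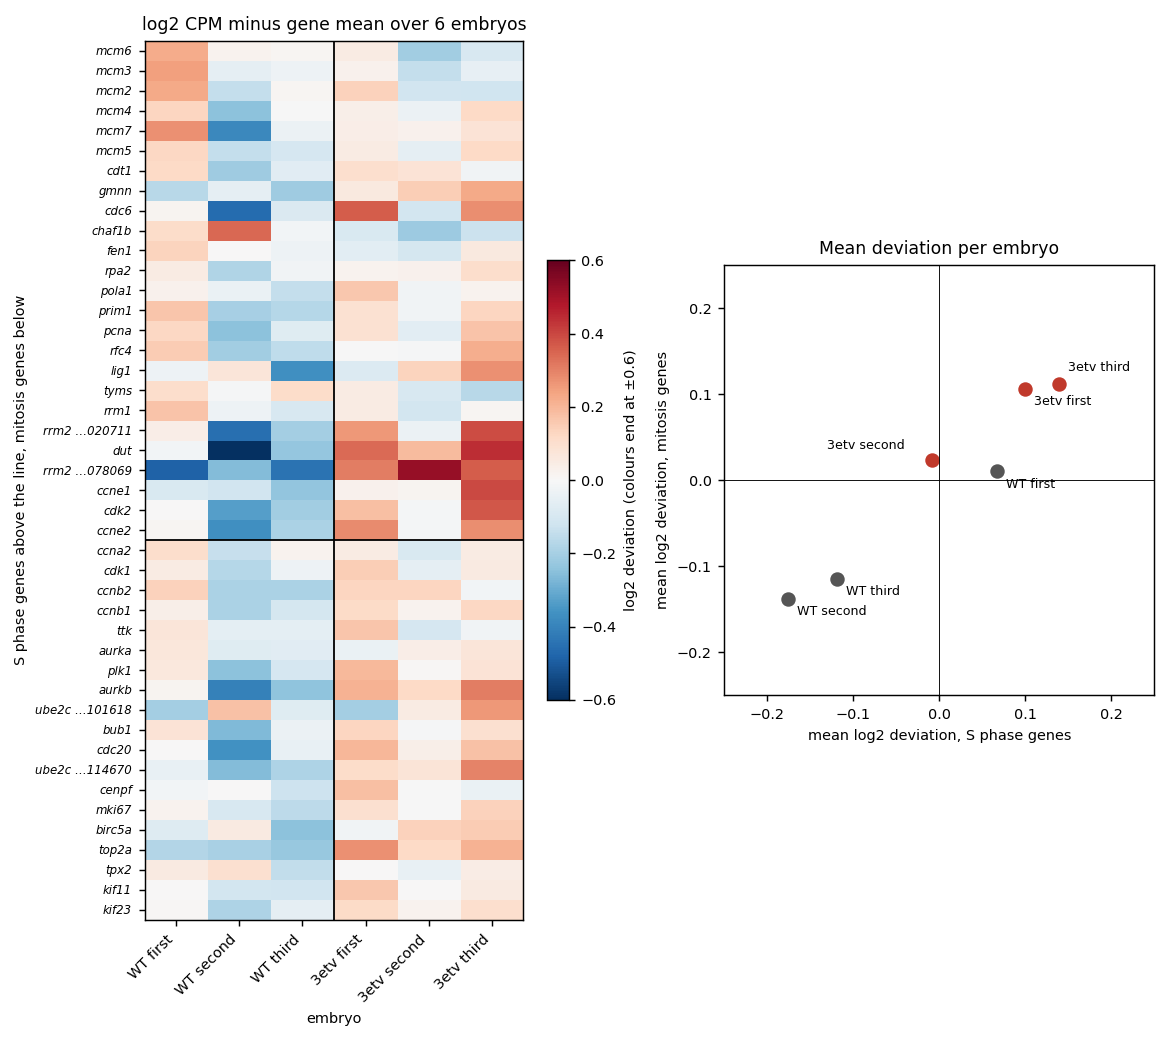
Left, deviation of log2 CPM from each gene's mean over the 6 embryos for the 44 entries (rows; S phase above the line, mitosis below) in each embryo (columns); right, the mean deviation per embryo over S phase entries (x axis) and mitosis entries (y axis), with wild types grey and mutants red. The first wild type (0.07, 0.01) lies near the second mutant (-0.0089, 0.02), and the other embryos separate by genotype along both axes.

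Further genes of the same machinery were read from lists drawn up with earlier results of these data known. Of 53 other replication genes, 7 were called higher and 1 lower, with a median log2 fold change of 0.08. The share called higher, 13.2%, was close to the 12.6% of all genes, and the share called lower, 1.89%, was below the 13.5% of all genes, a difference that was not tested. The higher count was 4 without the second (9.93% of all genes) or the third wild type (8.14%) and 2 without the third mutant (8.38%). With library totals only it was 4 (8.65% of all genes). The lower count was between 0 and 2 over these alternatives and the other fits on 5 embryos. In those fits 8.77% to 16.7% of all genes were called lower. Single genes of the list were among those called: the ticrr transcript, whose product helps to fire origins, rose by 0.45 ± 0.104 (adjusted p = 0.00761), from 41.6, 36.1 and 37.6 CPM to 59.9, 48.5 and 49.3 CPM. The gins3 transcript, a subunit of the active helicase, rose by 0.64 ± 0.159 (adjusted p = 0.0109), and orc4, a subunit of the origin recognition complex, by 0.64 ± 0.174 (adjusted p = 0.0174). Among wild types orc4 was uneven, at 34.1, 18.7 and 30.9 CPM, and its call was lost without the third mutant (adjusted p = 0.0616). The nuclease gene exo1 was called lower, at -0.41 ± 0.134 (adjusted p = 0.0388), a call lost in 4 of 14 alternatives.

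Of 59 other mitosis genes, 13 were called higher and 0 lower by edgeR (13.5% of all genes were called lower), with a median log2 fold change of 0.18. At an unadjusted p under 0.05, 19 were higher and 0 lower (19.0% and 20.2% of all genes). Neither DESeq2 nor limma-voom called any lower (12.6% and 13.2% of all genes). The share called higher was 22%, against 12.6% of all genes, and with library totals only 8 of the 59 were called higher, when 8.65% of all genes were. The securin gene pttg1, which holds separase in check, was at 9.94, 7.27 and 9.26 CPM in wild types and at 16.8, 16.3 and 15.9 CPM in mutants. No mutant came near the wild types, and the log2 fold change was 0.89 ± 0.139 (adjusted p = 0.00077). The kinase gene melk rose by 0.61 ± 0.0965 (adjusted p = 0.000893). The microtubule depolymerase gene kif2c rose by 0.46 ± 0.0805 (adjusted p = 0.0015). These 3 kept their calls in all 14 alternatives.

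Upstream regulators were counted next. Of 28 tested genes for G1 cyclins, E2F, RB, DREAM and MYB-FOXM1 factors, 7 were called higher and 4 lower, with a median log2 fold change of 0.14. The share called lower, 14.3%, was close to the 13.5% of all genes, and the share called higher was 25%, against 12.6%. The higher count was 3 with library totals only (8.65% of all genes) and 3 without the third mutant (8.38%). It was 4 without the second wild type (9.93%) and 4 without the third wild type (8.14%). The lower count was 1 without the third wild type (9.11% of all genes called lower). It was 2 without the second wild type (10.2%), the second mutant (9.68%) or the third mutant (8.77%). The D-type cyclins, which carry growth factor signals to CDK4 and CDK6, were divided. The ccnd1 transcript was at 682, 685 and 765 CPM in wild types and at 869, 911 and 989 CPM in mutants. All mutants were higher, with a log2 fold change of 0.38 ± 0.0969 (adjusted p = 0.0136), a call lost without the third mutant (adjusted p = 0.0582). In the opposite direction, ccnd2a was at 21.7, 20.6 and 17.3 CPM in wild types and at 15.6, 13.4 and 10.6 CPM in mutants. All mutants were lower, with a log2 fold change of -0.58 ± 0.148 (adjusted p = 0.0123). The related ccnd2b, at 3.14 CPM in wild types, had -0.82 ± 0.261 (adjusted p = 0.0352), and the kinase gene cdk6 had -0.45 ± 0.133 (adjusted p = 0.025); both lost the call in 4 of 14 alternatives. The MYC paralogs were divided too: myca rose by 0.50 ± 0.0941 (adjusted p = 0.00261), whereas mycb fell, at -0.32 ± 0.0928 (adjusted p = 0.0239), a call lost without the third wild type or the first mutant (adjusted p up to 0.113). The E2F partner gene tfdp2 rose by 0.40 ± 0.0929 (adjusted p = 0.0084).

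Of 16 tested CDK inhibitors and antiproliferative genes, 6 were called higher and 0 lower by edgeR, with a median log2 fold change of 0.30; the share called higher was 37.5%, against 12.6% of all genes. At an unadjusted p under 0.05, 9 were higher and 2 lower, against 19.0% and 20.2% of all genes. DESeq2 called 5 higher (11.8% of all genes) and limma-voom 6 (12.7%). Neither called any lower (12.6% and 13.2% of all genes). In edgeR 2 were called lower without the first wild type (12.7% of all genes), 1 without the second mutant (9.68%) and 1 with no low-count filter (11.0%). The btg2 transcript, whose product slows the cycle and marks neural precursors about to leave it in mouse, was at 118, 114 and 105 CPM in wild types and at 208, 179.9 and 225 CPM in mutants. The mutants were far above the wild types, with a log2 fold change of 0.86 ± 0.0984 (adjusted p = 9.57e-05). Its relative btg3 rose by 0.51 ± 0.0937 (adjusted p = 0.00208), and ccng2, a cyclin linked to cell cycle arrest, by 0.60 ± 0.104 (adjusted p = 0.00146). Of the 16 genes, 11 had changes above 0 and 5 below. Those below were cdkn1a (-0.83), ccng1 (-0.35), tob1b (-0.27), cdkn1ba (-0.10) and tob1a (-0.042), and edgeR called none of them. Genes that drive the cycle and some genes that oppose it were thus both among those called higher.

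Markers of cell states in the whole embryo were counted in the same fit, where 12.6% of all genes were called higher and 13.5% lower. At an unadjusted p under 0.05 these shares were 19.0% and 20.2%, in DESeq2 11.8% and 12.6%, and in limma-voom 12.7% and 13.2%. Of 20 entries for neural progenitor markers 10 were called higher and 0 lower (15 and 0 at an unadjusted p under 0.05; DESeq2 12 and 0, limma-voom 11 and 0), and their summed level was between 2045 and 2265 CPM in wild types and between 2499.9 and 2695 CPM in mutants. Examples were the Notch target her4.2 (ENSDARG00000094426, 2.15-fold higher, adjusted p = 1.07e-05), the eye and brain factor pax6a (log2 fold change 0.55 ± 0.0906, adjusted p = 0.00103) and the radial glia gene fabp7a (0.73 ± 0.12, adjusted p = 0.00109). A second entry with the symbol her4.2, ENSDARG00000056729, overlapped between the groups and was not called (log2 fold change 0.55, adjusted p = 0.0561). This entry had the highest change of the 10 progenitor markers not called, and her6 had the lowest (-0.19). Of the 20 progenitor entries, 18 had changes above 0 and 2 below, namely her6 and notch1b (-0.17). Also not called were gfap (0.10), nes (0.14), her9 (0.071), sox2 (0.20) and sox3 (0.21). Of 17 postmitotic neuron markers 6 were called higher and 0 lower. At an unadjusted p under 0.05, 7 were higher and 1 lower, and DESeq2 and limma-voom each called 6 and 0. Their sums were from 1653 to 2011 CPM in wild types and from 2012 to 2311 CPM in mutants. The higher count was 3 with library totals only (8.65% of all genes), without the third wild type (8.14%) and without the third mutant (8.38%). The lower count was 1 with library totals only (16.7% of all genes), without the third wild type (9.11%) and with no low-count filter (11.0%). Among the neuron markers called higher, gng3 led with 0.64 ± 0.115 (adjusted p = 0.00197), followed by syt1a (0.51) and snap25a (0.43). The 11 neuron markers not called had log2 fold changes from -0.51 for nefmb to 0.28 for snap25b. Of the 17 neuron markers, 15 had changes above 0 and 2 below, namely nefmb and rbfox1 (-0.18). Among those not called were elavl3 (0.19, adjusted p = 0.179) and tubb5 (0.21, adjusted p = 0.18), with wild-type means of 632 and 467 CPM. Of 10 skeletal muscle markers 5 were called lower and 0 higher (6 and 0 at an unadjusted p under 0.05; DESeq2 and limma-voom each 6 and 0), with sums from 14319 to 16434 CPM in wild types and from 11392 to 13817 CPM in mutants. Among these, the calcium pump gene atp2a1 had -0.62 ± 0.123 (adjusted p = 0.0034) and the myogenic factor myog -0.69 ± 0.165 (adjusted p = 0.00968); ckmb, actn3b and actn3a had -0.45, -0.45 and -0.34. The call of ckmb was lost in 2 of 14 alternatives (adjusted p up to 0.0612), and those of actn3b and actn3a in 4 each (up to 0.126 and 0.164). The mean of atp2a1 was 5615 CPM in wild types and 3662 CPM in mutants. The 5 muscle markers not called had log2 fold changes from -0.32 for ckma to -0.0078 for mylpfa. The mylpfa means were 3632 CPM in wild types and 3612 CPM in mutants (adjusted p = 0.97). For mylpfb and tnnt3b the log2 fold changes were -0.0081 and -0.059. The count of muscle markers called lower was 2 without the first mutant (11.4% of all genes), 2 without the third mutant (8.77%) and 3 without the third wild type (9.11%). Of 9 erythroid markers 2 were called higher, slc4a1a (0.74) and hbae1.1 (0.84), and 0 lower by edgeR, DESeq2 or limma-voom or at an unadjusted p under 0.05, with sums from 348 to 464 CPM in wild types and from 473 to 541 CPM in mutants. The 7 erythroid markers not called had log2 fold changes from -0.56 for tfr1a to 0.25 for klf1. Of the 9 erythroid markers, 6 had changes above 0 and 3 below, namely tfr1a, hbbe2 (-0.18) and gata1a (-0.12). For gata1a all mutants lay below all wild types, but the change was not called (adjusted p = 0.652). Without the first mutant, 1 progenitor marker and 1 erythroid marker were called lower (11.4% of all genes). No marker in these 4 lists was at 0 in all libraries of a genotype. The part of these cell states in the changes of the cell cycle genes was not tested.

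**Figure D4:**
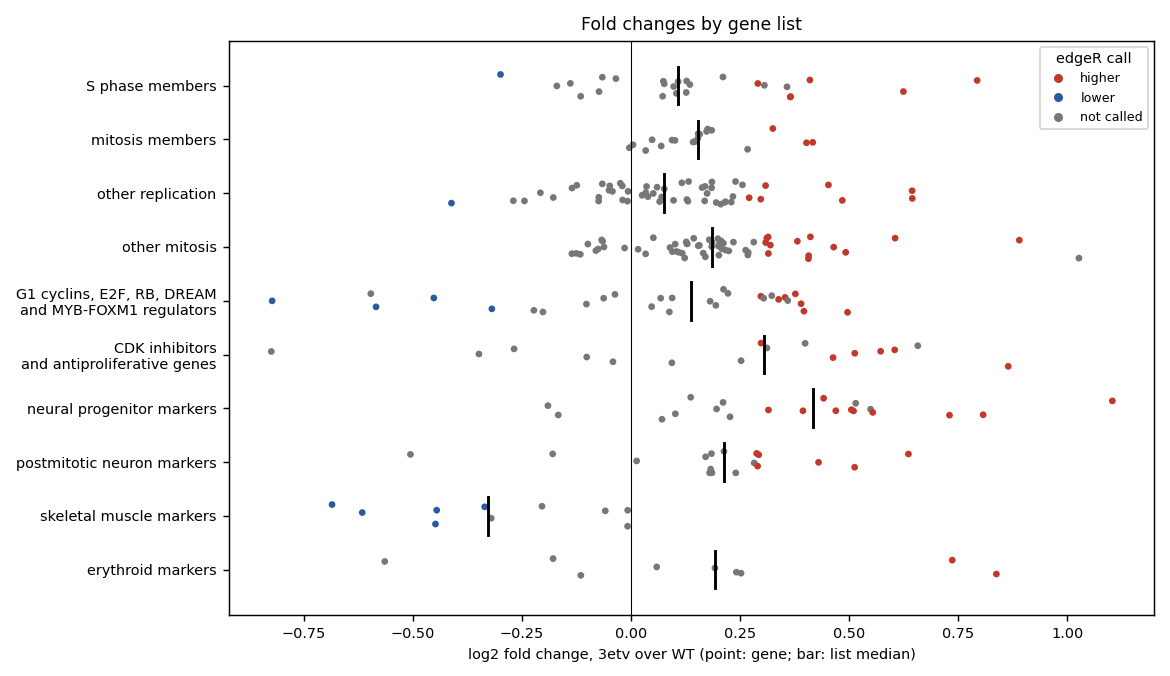
Log2 fold change, mutant over wild type (x axis), of each tested gene in the S phase and mitosis sets, in 4 further lists of cell cycle genes and in 4 lists of cell state markers (rows); colour gives the edgeR call and the bar is the list's median. The medians run from -0.33 for skeletal muscle markers to 0.42 for neural progenitor markers, with S phase genes at 0.11 and mitosis genes at 0.15.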

How the data were processed

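Raw read counts of 6 single embryos were used as deposited, 1 row per Ensembl gene. The submitters' processing notes name STAR, HTSeq and the build GRCz11; versions, annotation release and strand setting are not given in the sources used here, so counts of overlapping, antisense and near-identical genes are uncertain. A header break between the names of 2 mutant columns was repaired by splitting at the space, and each name matched a sample title. The closing summary lines were left out. Of all counts, with those lines included, 38.9% to 39.9% were in genes. The share in no gene was 53.6% to 54.3% in wild types and 55.3% to 55.4% in mutants. The share aligned to more than 1 place was 6.10% to 6.50% in wild types and 5.14% to 5.32% in mutants. In R 4.3.3, counts were filtered with filterByExpr, scaled by TMM and tested with edgeR 4.0.16 (quasi-likelihood test, genotype only) over 19889 genes, with Benjamini-Hochberg adjustment. The SE is the log2 fold change over the square root of F. DESeq2 1.42.0 and limma-voom (limma 3.58.1) were alternatives. The tests were run on simulated counts in which far fewer genes changed than were called here. They were therefore not checked at the share of calls seen in these data. Depth is ample for the 44 entries, whose lowest mean was 9.64 CPM, where 3 counts are 0.118 to 0.171 CPM. Libraries of one genotype differed beyond sampling noise, and wild types differed more than mutants. Chi-square per degree of freedom was from 20.1 to 49.0 for pairs of wild types and from 6.32 to 9.56 for pairs of mutants. The 44 entries and all lists were chosen with earlier results of these data known; 13 of 226 list symbols matched no entry and were not used here. Genes named from the further lists are all called genes of a direction with 5 or fewer calls, otherwise the 3 with the smallest adjusted p.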

Additional observations from a re-analysis of the deposited data

How the results depend on the processing

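The alternatives were DESeq2 size factors, library totals only, no low-count filter, a mean of at least 50 counts, the DESeq2 Wald test, limma-voom, the replicate block and each embryo left out; summing entries of one symbol was added after the data were seen. Of 1032 single-gene values, 946 kept direction and call, 60 lost a call, 5 gained one and 21 turned sign, none of them in a called gene. With library totals only, 4 entries (S phase 2) and 19 further cell cycle genes were higher, when 8.65% of all genes were. The mitosis median was then 0.078, and 34.2% of all calls were higher, against 48.3%. With this scaling the signs of ccna2 (-0.072), aurka (-0.028), mcm4 (-0.0047), mcm7 (-0.0023), ttk (-0.039) and ube2c ENSDARG00000101618 (-0.0095) turned. The call of chaf1b was lost, leaving 0 lower entries, under the DESeq2 test, limma-voom and the replicate block. Of all genes, 12.6%, 13.2% and 12.5% were called lower in these fits, in that order.

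Across the 6 fits on 5 embryos, entries called higher ran from 3 to 10 and lower from 0 to 1. Over all tested genes the share called higher ran from 8.14% to 11.2% in these fits, and the share called lower from 8.77% to 12.7%. S phase entries called higher ran from 2 to 6 and lower from 0 to 1, and mitosis entries called higher from 1 to 4. Further cell cycle genes called higher ran from 20 to 32 and lower from 2 to 7, and the S phase median from 0.039 to 0.22 and the mitosis median from 0.11 to 0.19. Log2 fold changes there ran from -0.063 to 0.059 for ccna2, -0.15 to 0.034 for mcm2, -0.027 to 0.16 for mcm4, -0.081 to 0.25 for mcm7, -0.091 to 0.045 for rrm1, -0.077 to 0.041 for tpx2, -0.036 to 0.098 for ttk and -0.044 to 0.20 for ube2c ENSDARG00000101618. What caused these shifts was not tested.

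Same-numbered embryos did not deviate together (correlations -0.0694, 0.0856 and -0.111). With the replicate block, 10 entries were higher and 0 lower (11.2% and 12.5% of all genes): cdc6 gained a call (adjusted p = 0.0163) and chaf1b had 0.0666 in edgeR. The smallest count of any of the 44 entries in a library was 164.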
